A study of Mus musculus with 166 samples.

Results

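The Slc25a genes encode the mitochondrial carrier family, and their mRNA was followed in the cerebellum of mice that carry Huntington's disease alleles of different CAG length. Members were taken as every symbol that begins with Slc25a and reached at least 0.5 CPM (a count scaled to a common library total) in at least 8 libraries. Of 48 such symbols 43 passed, among 16525 genes tested of 39179 listed. The 5 that did not pass were Slc25a31, Slc25a41, Slc25a43, Slc25a54 and the pseudogene Slc25a5-ps. Slc25a2 and Slc25a48 passed narrowly, with 11 and 23 libraries at the minimum.

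Polyadenylated RNA came from 166 cerebella of C57BL/6 mice of both sexes, aged 2, 6 or 10 months. Knock-in mice were heterozygous, with a human HTT exon in one Htt allele carrying a repeat named Q20, Q80, Q92, Q111, Q140 or Q175, and WT mice carried no knock-in. WT and Q20 were pooled as controls. Each genotype had 8 libraries at each age, but Q111 and Q140 had 7 at 10 months. The cerebellum was measured whole, so fewer cells of a type and less RNA per cell cannot be told apart.

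Mitochondrial carriers sit mostly in the inner membrane and exchange metabolites, nucleotides, cofactors and ions between the cytosol and the matrix. Each has its own set of substrates, so that the family links oxidative phosphorylation, amino acid metabolism, heme and iron use and the shuttling of reducing equivalents to the rest of the cell. In neurons the carriers of adenine nucleotides, phosphate, aspartate and glutamate are known for their part in energy supply.

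Library totals ranged from 23448884 to 43066066. The recovery of long transcripts varied among libraries and was expressed as a length index (the slope across genes of a library's log2 deviation from the gene median on log2 gene length). It was under -0.05 in 24 libraries (16, 4 and 4 at 2, 6 and 10 months), and results are also given without them. Genes that mark sex went against the labelled sex in 2 libraries. Markers of neurons outside the cerebellum were at 5.56 to 6.64 CPM in sum in Q175 of 10 months, and those of granule cells at 2686 to 3137 CPM. In other groups the sum for neurons outside the cerebellum reached 139.6 CPM in Q92 of 2 months and 132 CPM in Q140 of 6 months.

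Sequences are shown for Slc25a29, the member with the smallest p for CAG length, and for Slc25a25, where a cAMP response element was found near a start. Both are RefSeq sequence of GRCm38.p6, printed along the minus strand with motifs in capitals. Slc25a29 (chr12:108825873-108835883, minus strand) lies head to head with Slc25a47 (chr12:108836046-108856815, plus strand), and the 162 bases between them (chr12:108835884-108836045) hold CCAAT on each strand, seen as CCAAT and ATTGG.
Slc25a29 to Slc25a47: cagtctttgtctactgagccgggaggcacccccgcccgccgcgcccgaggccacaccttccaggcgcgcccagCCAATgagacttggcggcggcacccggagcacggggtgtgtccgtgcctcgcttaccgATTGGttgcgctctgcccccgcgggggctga
For Slc25a25 the 250 bases before the most downstream of 3 annotated starts (chr2:32424067-32424316) hold the palindrome TGACGTCA and CCAAT on the other strand.
Slc25a25: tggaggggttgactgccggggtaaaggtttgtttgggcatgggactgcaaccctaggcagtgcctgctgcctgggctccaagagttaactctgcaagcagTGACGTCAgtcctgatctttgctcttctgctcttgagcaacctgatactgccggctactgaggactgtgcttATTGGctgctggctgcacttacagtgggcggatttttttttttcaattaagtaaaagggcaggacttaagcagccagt
CCAAT on either strand was in 33.8% of all 32851 windows of this kind and in 21 of 43 windows of the 33 members that matched RefSeq. TGACGTCA was in 1.55% of all windows and in 2 windows of members, those of Slc25a25 and Slc25a36. The palindromic motif of the nuclear respiratory factor NRF1 was in 3.74% of all windows and in 1 of a member, Slc25a3. Gene counts do not tell the starts of a gene apart.

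Levels of different genes can be compared only per length, and for this the deposited FPKM of the 16 control libraries of 10 months were used. The 3 highest members supply ATP synthase and export its product. Slc25a4, an adenine nucleotide translocase, was at 248.8 ± 16.7 FPKM (SD, n = 16). Slc25a3, the phosphate carrier, was at 248.3 ± 9.23 FPKM, and these ranges overlapped. Slc25a5, another adenine nucleotide translocase, was at 187.1 ± 9.93 FPKM and did not overlap with them. These 3 genes held 50.02% of the summed FPKM of the family.

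Next came Slc25a23, a calcium-regulated carrier of ATP-Mg and phosphate, at 87.9 ± 4.59 FPKM, and the glutamate carrier Slc25a22 at 83.7 ± 8.04 FPKM, with overlapping ranges. Slc25a12 (aralar), the aspartate/glutamate carrier of neurons, was at 49.2 ± 1.62 FPKM and the oxoglutarate carrier Slc25a11 at 46.96 ± 2.97 FPKM, again with overlap. In all, 23 members were at 10 FPKM or more, 16 between 1 and 10 FPKM and 4 under 1 FPKM (Slc25a21, Slc25a24, Slc25a2 and Slc25a48).

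**Figure D1:**
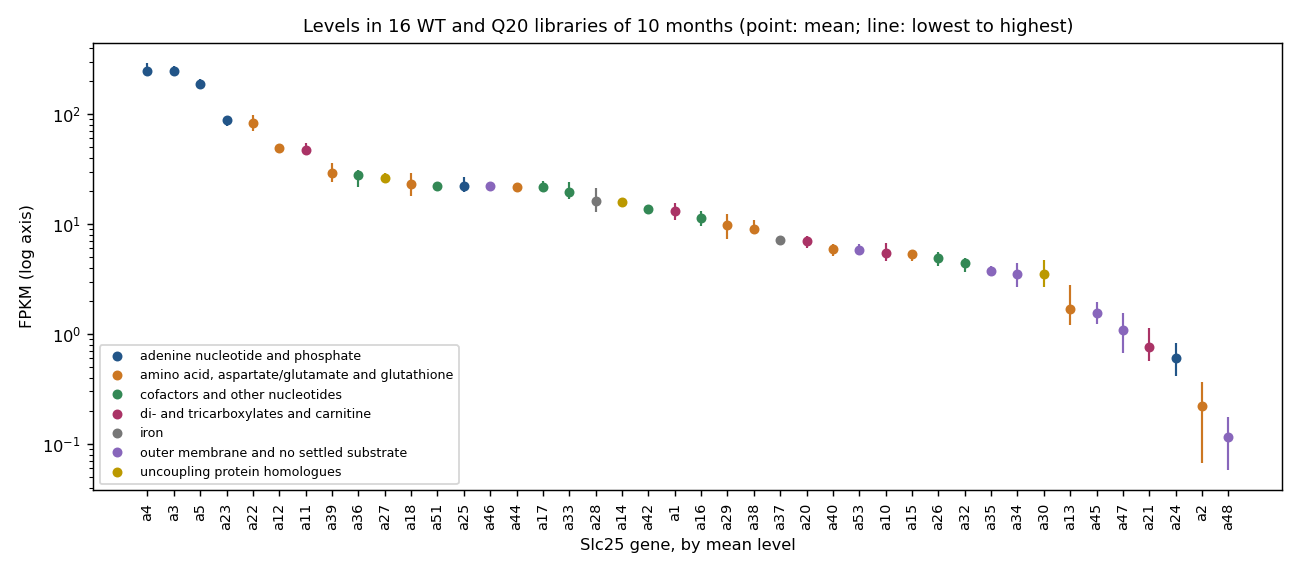
FPKM on a log axis for 42 Slc25a genes in 16 WT and Q20 libraries of 10 months, with the mean as a point and the lowest to highest library as a line, coloured by role. Slc25a4, Slc25a3 and Slc25a5 stand at the top, from 187.1 FPKM upwards.

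Related carriers were present at unequal levels. By FPKM in the control libraries Slc25a4 exceeded Slc25a5 by a ratio of 1.33 ± 0.0518 (SD, n = 16). Slc25a12 exceeded Slc25a13 (citrin, the aspartate/glutamate carrier known from liver) by 30.1 ± 5.68, and Slc25a22 exceeded the glutamate carrier Slc25a18 by 3.62 ± 0.31. The ratio of mitoferrin 2 (Slc25a28) to mitoferrin 1 (Slc25a37) was 2.27 ± 0.343.

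The first comparison set each expanded line against the controls of its age. In Q175 of 10 months 6 of 43 members passed the test (14%, edgeR with Benjamini-Hochberg adjustment over all genes), beside 12.8% of all genes, so the share of members was near that of all genes. Slc25a27 and Slc25a38 rose, and Slc25a29, Slc25a37, Slc25a25 and Slc25a35 fell. The median log2 fold change of the members was -0.011 and that of all genes -0.005.

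In Q175 of 6 months 4 members passed (9.3%), beside 4.52% of all genes. Slc25a27 rose, and Slc25a29, Slc25a10 and Slc25a22 fell. Slc25a27 and Slc25a29 were thus called at both ages. WT and Q175 libraries of 6 months carry another name format than the rest, and with that set as a covariate the contrast of Q175 rested on WT and those of the other lines on Q20. Control ranges and medians of 6 months given below pool WT with Q20, and 2 of these Q20 libraries were of low length index. With libraries of low length index left out 9 members passed at 6 months, beside 13.3% of all genes, and 7 at 10 months, beside 26.2%.

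No member passed in Q80, Q92, Q111 or Q140 at any age, nor in Q175 of 2 months (edgeR). Of all genes 0.635% were called in Q140, 0.817% in Q92 and 0.115% in Q111 of 10 months. At 6 months 0.0363% were called in Q140 and 0.0182% in Q111, at 2 months 0.0424% in Q92 and 0.00605% in Q175, and no gene in the others. Members with an unadjusted p under 0.05 numbered 0 or 1 in each line at 2 months, beside 1.02% to 6.80% of all genes. In Q111 of 6 months they numbered 13, where 20.3% of all genes had such a p. Without the libraries of low length index the number in Q111 of 6 months was 4, beside 8.61% of all genes. DESeq2 called 1 member in Q92 of 10 months and 0 in the others of these comparisons.

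CAG length was then taken as a number (7 for WT), with one Z made of the slopes at 6 and 10 months. Of 43 members 9 passed (20.9%), beside 17.0% of all genes. Slc25a27, Slc25a12 and Slc25a38 rose with CAG length, and Slc25a29, Slc25a25, Slc25a22, Slc25a37, Slc25a13 and Slc25a10 fell. At 2, 6 and 10 months taken apart 0, 3 and 4 members passed for the slope, beside 0.0303%, 5.51% and 8.01% of all genes. The median Z was -0.49 over the members and -0.21 over all genes. With the Q175 libraries left out, a setting chosen after seeing the data, 0 members passed by edgeR, beside 0.920% of all genes. Of the 43 members 5 had an unadjusted p under 0.05, beside 9.95% of all genes. Slc25a29 (Z = -3.40, adjusted p = 0.0631) and Slc25a27 (Z = 3.40, adjusted p = 0.0631) came nearest.

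**Figure D2:**
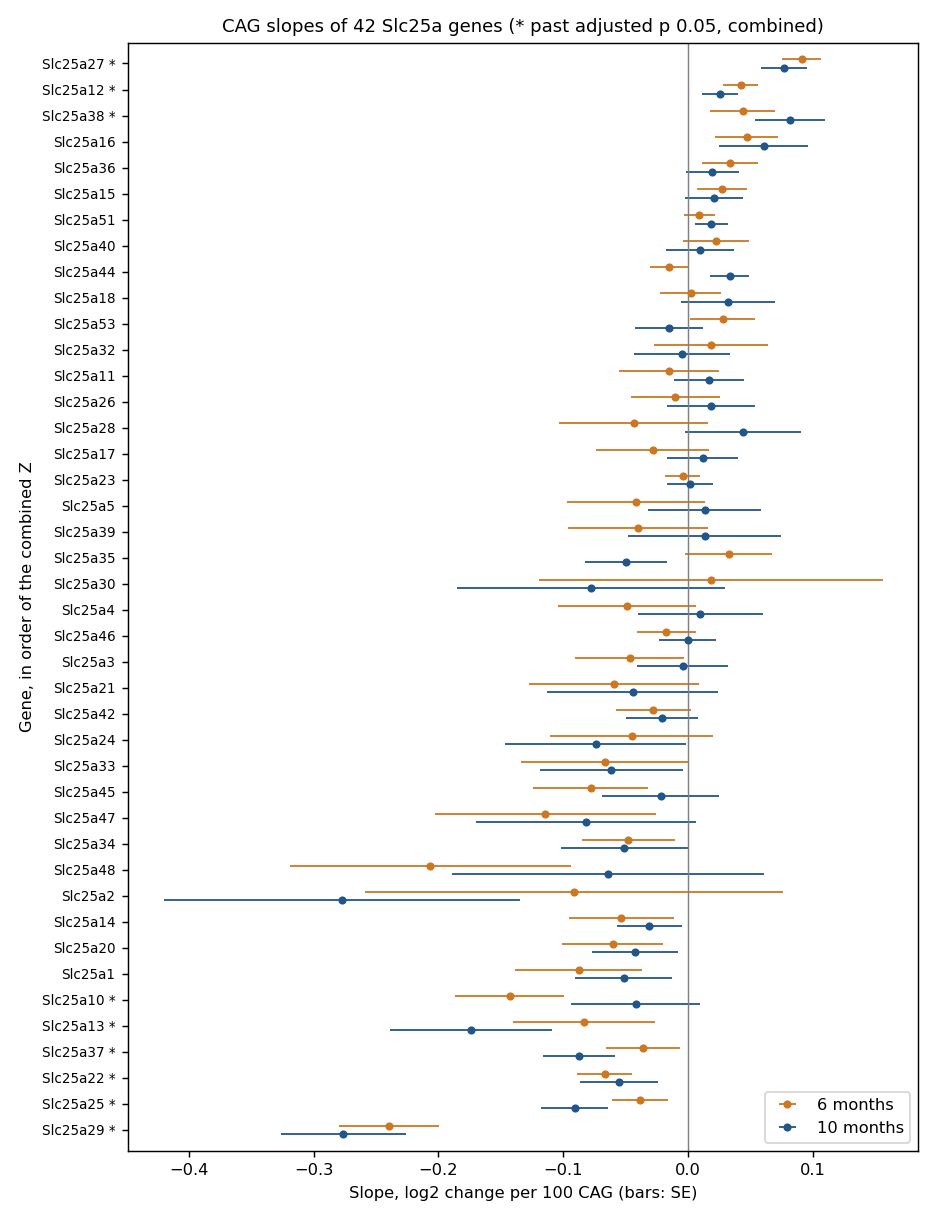
Slope (log2 change per 100 CAG) with SE at 6 and 10 months for 42 Slc25a genes, ordered by the combined Z, with a star for those past the threshold. Slc25a29 lies at -0.24 and -0.28, and Slc25a27 at 0.091 and 0.077.

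Markers of oligodendrocytes moved in the same comparison. In the combined slope 6 of 6 fell, and in Q175 of 10 months 4 of 6 fell, with Mobp at -0.58 on the log2 scale. Their summed level was 3052 to 4446 CPM in Q175, 4003 to 5405 CPM in WT and 4572 to 5857 CPM in Q20 of 10 months. Purkinje cell markers fell in 3 of 5 and those of astrocytes and Bergmann glia in 3 of 6 in Q175 of 10 months. Markers of neurons outside the cerebellum fell in 2 of 4, with a median log2 fold change of -0.44 over the 4. Their sum was low and overlapped, at 5.56 to 6.64 CPM in Q175, 5.82 to 9.76 CPM in WT and 5.74 to 14.5 CPM in Q20. Markers of endothelium fell in 1 of 3 and those of granule cells in 2 of 5, with 1 granule cell marker higher. No marker of choroid plexus, microglia or blood passed by edgeR in Q175 of 10 months. Only 1, of choroid plexus, had an unadjusted p under 0.05, beside 24.3% of all genes. Choroid plexus markers summed to 16.2 to 1517 CPM in Q175, 24.9 to 1898 CPM in WT and 31.7 to 2591 CPM in Q20. With the oligodendrocyte mean as a covariate, also chosen after seeing the data, 4 members passed in the combined slope (Slc25a29, Slc25a37, Slc25a27 and Slc25a38), beside 8.68% of all genes.

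Among carriers of amino acids and glutathione 2 of 11 rose with CAG length, 3 fell and 6 were not called. Slc25a29 carries basic amino acids such as arginine and lysine. At 10 months its CPM was 13.9, 16.9 and 22.6 in WT (lowest, median and highest library), 12.8, 16.98 and 21.2 in Q20 and 14.97, 17.1 and 22.3 in Q80. It was 13.01, 16.97 and 18.3 in Q92 and 12.8, 14.5 and 17.2 in Q111. In Q140 it was 11.8, 14.5 and 16.3, and in Q175 9.55, 12.02 and 16.1. Q175 was the lowest group, with 0 of 8 libraries above the control median, although the ranges overlapped.

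The log2 fold change of Slc25a29 in Q175 of 10 months was -0.51 ± 0.0823 (SE, edgeR adjusted p = 6.73e-06), so that it fell by 29.8%. In Q140 it was -0.26 ± 0.0852 (adjusted p = 0.197), with 0 of 7 libraries above the control median. At 6 months Slc25a29 was at 13.9, 15.4 and 17.2 CPM in Q175 and 14, 20.8 and 23.9 CPM in controls, a log2 fold change of -0.48 ± 0.0814 (adjusted p = 5.26e-05). With the oligodendrocyte covariate the fold change was -0.55 at 6 months (adjusted p = 0.000408) and -0.51 at 10 months (adjusted p = 0.00175). Over the 142 libraries of all ages that were not low in length index, log2 CPM of Slc25a29 had r = 0.30 with the oligodendrocyte mean. It had r = 0.53 with the mean of Purkinje cell markers, 0.54 with that of astrocytes and Bergmann glia and -0.64 with that of microglia. Adjustment for these other means was not tested.

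At 2 months Slc25a29 was not called in Q175, at -0.023 ± 0.168 on the log2 scale (adjusted p = 1). Libraries of that age spread widely, at 18.2, 20.6 and 35.5 CPM in Q175 and 18.1, 22.2 and 34.96 CPM in controls, and the highest of both belonged to libraries of low length index. The slope of 2 months exceeded that of 10 months by 0.30 ± 0.0954 (adjusted p = 0.14), and without those libraries by 0.21 ± 0.0619 (adjusted p = 0.0365). Of all genes 0.841% and 3.15% passed for this difference. The neighbour Slc25a47 had a log2 fold change of -0.077 ± 0.15 in Q175 of 10 months (adjusted p = 0.834).

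**Figure D3:**
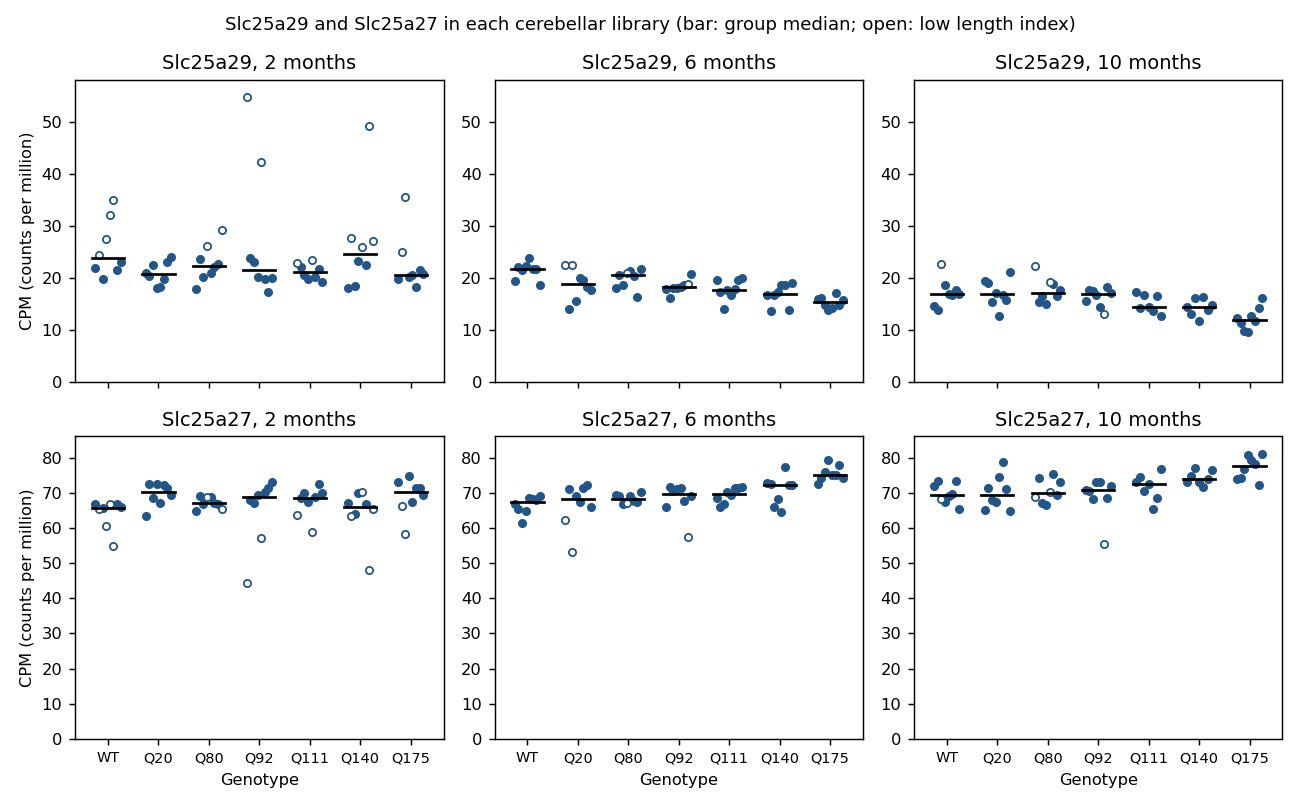
CPM of Slc25a29 and Slc25a27 in each library at 2, 6 and 10 months by genotype, with the group median as a bar and libraries of low length index as open points. At 10 months the median of Slc25a29 is 12.02 in Q175 and 16.9 in WT, and that of Slc25a27 is 77.6 and 69.5.

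Slc25a38 brings glycine into the matrix for the first step of heme synthesis. Its CPM at 10 months was 13.4, 15.1 and 18.8 in WT, 14.3, 15.3 and 16.7 in Q20 and 14.2, 15.9 and 18.7 in Q80. It was 12.3, 16.1 and 17.5 in Q92, 14.4, 15.5 and 16.4 in Q111 and 14.2, 14.9 and 17.1 in Q140. In Q175 it was 14.8, 17.6 and 20.02, with 7 of 8 libraries above the control median and ranges that overlapped. The log2 fold change in Q175 was 0.19 ± 0.0489 at 10 months (adjusted p = 0.00565) and 0.1 ± 0.0549 at 6 months (adjusted p = 0.448).

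Slc25a22 carries glutamate together with a proton. In libraries of 6 months it reached 188.1, 198.8 and 212.8 CPM in Q175 and 182.5, 223.8 and 248.6 CPM in controls, with 0 of 8 Q175 libraries above the control median and ranges that overlapped. The log2 fold change was -0.19 ± 0.0421 (adjusted p = 0.00256), and at 10 months it was -0.12 ± 0.0513 (adjusted p = 0.133). Its combined Z was -3.26 (adjusted p = 0.0109), and 0.56 without Q175. It was also not called by limma on log2 FPKM (Z = -2.62, adjusted p = 0.0588). The CPM at 10 months was 161.4, 197.3 and 229.3 in WT, 166.8, 191.9 and 206.3 in Q20, 187.5, 210.8 and 233.8 in Q80 and 133.1, 202.1 and 227.8 in Q92. The remaining lines did not follow CAG length in order, with 180.1, 185.8 and 200.8 in Q111, 165.9, 193.1 and 210.7 in Q140 and 151.1, 178.5 and 217.9 in Q175.

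Both aspartate/glutamate carriers passed in the combined slope, in opposite directions. Slc25a12 had Z = 3.21 (adjusted p = 0.0122), and 1.48 by limma on log2 FPKM (adjusted p = 0.369). Its log2 fold change in Q175 was 0.071 ± 0.0295 at 6 months and 0.053 ± 0.0243 at 10 months. Its CPM at 10 months was 158.6, 162.4 and 172.2 in WT, 152, 162.3 and 176 in Q20, 151.6, 158 and 169.9 in Q80 and 117.9, 160.3 and 165.9 in Q92. In Q111 it was 145.6, 163.1 and 171.1, in Q140 158.4, 165.3 and 169.1 and in Q175 158.2, 173.2 and 175.8, so that all groups overlapped.

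Slc25a13 had Z = -2.85 (adjusted p = 0.0301). Its CPM at 10 months was 3.74, 4.88 and 5.56 in WT, 4.26, 5.06 and 8.47 in Q20, 3.001, 4.48 and 6.07 in Q80 and 3.62, 4.36 and 5.34 in Q92. In Q111 it was 3.43, 4.73 and 5.72, in Q140 3.01, 3.85 and 6.18 and in Q175 3.62, 4.25 and 5.42. The sign of this member turned with the oligodendrocyte covariate, at Z = 2.16 (adjusted p = 0.164). When the mean of the choroid plexus markers was added to the fit it was at -1.64 (adjusted p = 0.322), and over the 142 libraries that were not low in length index its log2 CPM had r = 0.69 with that mean. The call was lost in 6 of 13 alternatives, among them WT alone as controls (Z = -1.47, adjusted p = 0.374), a replicate block (Z = -2.57, adjusted p = 0.0602) and leaving out the 2 libraries of opposite sex markers (Z = -2.58, adjusted p = 0.0571).

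The other members of this group were not called. Slc25a18 was at Z = 0.64, the ornithine carriers Slc25a15 and Slc25a2 at 1.57 and -1.73, Slc25a39 and Slc25a40 (glutathione) at -0.35 and 0.83, and Slc25a44 (branched-chain amino acids) at 0.77. The enzymes that make up the malate-aspartate shuttle with Slc25a12 and Slc25a11 (Got1, Got2, Mdh1 and Mdh2) gave 0 calls of 4 in the combined slope by edgeR and by DESeq2. Of all genes 17.0% and 18.3% were called in these fits. An unadjusted p under 0.05 was seen in 0 of the enzymes, beside 28.4% of all genes by edgeR. Without the libraries of low length index it was seen in 1, beside 39.7%.

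Slc25a27 (UCP4), a homologue of the uncoupling proteins that is known from brain, had the smallest p among members that rose. Libraries of 6 months were at 72.5, 75.1 and 79.3 CPM in Q175 and 53.2, 67.8 and 72.2 CPM in controls, and these ranges did not overlap. The share of all genes with such separate ranges was not counted. The log2 fold change of Slc25a27 was 0.18 ± 0.0331 (adjusted p = 0.000169). At 10 months the CPM was 65.6, 69.5 and 73.4 in WT, 64.9, 69.6 and 78.8 in Q20, 66.6, 69.99 and 75.4 in Q80 and 55.4, 70.8 and 73.2 in Q92. It was 65.5, 72.6 and 76.8 in Q111, 71.7, 73.9 and 77.2 in Q140 and 72.3, 77.6 and 81.3 in Q175. The medians stood in the order of CAG length, with overlapping ranges.

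In Q175 of 10 months 8 of 8 libraries lay above the control median of Slc25a27, and the log2 fold change was 0.13 ± 0.0332 (adjusted p = 0.00513). Q140 was at 0.095 ± 0.0348 (adjusted p = 0.312), with 7 of 7 libraries above that median. With the oligodendrocyte covariate the value in Q175 was 0.041 ± 0.0446 at 10 months (adjusted p = 0.619) and 0.18 ± 0.0419 at 6 months (adjusted p = 0.00769). The related Slc25a14 (UCP5) and Slc25a30 were not called, at Z = -1.74 and -0.42.

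Among carriers of adenine nucleotides and phosphate 1 of 6 fell with CAG length. Slc25a25 exchanges ATP-Mg for phosphate under the control of calcium. Its level at 10 months was 62.7, 71.8 and 79.7 CPM in WT, 68.8, 70.8 and 83.3 in Q20, 69.4, 74.6 and 75.95 in Q80 and 40.6, 72.7 and 80.6 in Q92. In Q111 it was at 63.8, 68.3 and 79.8, in Q140 at 63.2, 66.4 and 73.9 and in Q175 at 60.6, 64.1 and 68.8. Of the Q175 libraries 0 of 8 lay above the control median, with overlap. The log2 fold change was -0.18 ± 0.047 (adjusted p = 0.0067), and -0.12 ± 0.0659 with the oligodendrocyte covariate (adjusted p = 0.306). By limma on log2 FPKM it was -0.16 (adjusted p = 0.0948). The combined Z of Slc25a25 was -3.45 (edgeR adjusted p = 0.0063), and -0.41 without the Q175 libraries (adjusted p = 0.905).

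The other 5 members of this group were not called. In Q175 of 10 months Slc25a3 was at -0.011 ± 0.0641, Slc25a4 at 0.039 ± 0.0878, Slc25a5 at 0.029 ± 0.0791, Slc25a23 at -0.014 ± 0.0341 and Slc25a24, the only one of them under 1 FPKM, at -0.16 ± 0.133 on the log2 scale. The ratio of Slc25a4 to Slc25a5 in FPKM was 1.34 ± 0.0508 in Q175 (SD, n = 8). When libraries of low length index were left out, where 30.3% of all genes passed in the combined slope, Slc25a5 did so at Z = 2.61 (adjusted p = 0.0334).

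Of the mitoferrins, which bring iron into the matrix, Slc25a37 fell and Slc25a28 was not called. Slc25a37 at 10 months was at 33.9, 39.8 and 41.5 CPM in WT, 37.3, 39.9 and 41.3 in Q20, 32.2, 38.8 and 42.6 in Q80 and 21.5, 38.1 and 41.6 in Q92. It was at 35.3, 38.1 and 41.9 in Q111, 34.3, 39.1 and 40.1 in Q140 and 32.5, 34.1 and 37.7 in Q175. The Q175 range overlapped with the controls, although 0 of 8 libraries lay above the control median. The log2 fold change was -0.20 ± 0.0511 (adjusted p = 0.005), and -0.31 ± 0.0701 with the oligodendrocyte covariate (adjusted p = 0.00222). The combined Z of Slc25a37 was -2.89 (edgeR adjusted p = 0.0281), and -0.30 without the Q175 libraries (adjusted p = 0.931). Its call for the slope of 10 months was lost in 8 of 12 alternatives. Slc25a28 was at 0.11 ± 0.0819 (adjusted p = 0.44), and with the low libraries left out at 0.15 ± 0.0493 (adjusted p = 0.0225). The FPKM ratio of Slc25a28 to Slc25a37 was 2.84 ± 0.397 in Q175 (SD, n = 8) and 2.27 ± 0.343 in controls. The ranges overlapped, at 2.2 to 3.36 in Q175 and 1.76 to 3.26 in controls, which held 1 WT library of low length index.

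Of the carriers of di- and tricarboxylates and carnitine 1 of 5 fell with CAG length. Slc25a10, the dicarboxylate carrier, was at 7.88, 9.65 and 11.3 CPM in Q175 and 7.37, 11.1 and 14.2 CPM in controls of 6 months, a log2 fold change of -0.29 ± 0.0902 (adjusted p = 0.0473). This call was lost in 4 of 11 alternatives. Among the 11, WT alone as controls and leaving out the libraries of opposite sex markers could not differ from the main fit at 6 months. The combined call was lost in 5 of 13, among them the fit without the libraries of low length index (Z = -2.34, adjusted p = 0.0604). At 10 months it was at -0.00094 ± 0.0943, and the difference of its slopes between these ages did not pass (adjusted p = 1). The citrate carrier Slc25a1, the carnitine carrier Slc25a20, Slc25a11 and the oxodicarboxylate carrier Slc25a21 were not called, at Z = -2.13, -1.93, 0.16 and -1.07. Slc25a11 passed at Z = 2.60 without the libraries of low length index (adjusted p = 0.0341).

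Of 9 carriers of cofactors and other nucleotides 0 passed in the combined slope by edgeR. Slc25a16, linked to coenzyme A, was nearest at Z = 2.46 (adjusted p = 0.0705), and it passed at 3.03 without the libraries of low length index (adjusted p = 0.012). Slc25a36 and Slc25a33 (pyrimidine nucleotides) were at 1.70 and -1.46, Slc25a51 (NAD) at 1.48 and Slc25a26 (S-adenosylmethionine) at 0.16. Slc25a32 (folate), Slc25a42 (coenzyme A) and the peroxisomal Slc25a17 were at 0.19, -1.16 and -0.15.

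In the last group, which holds Slc25a46 of the outer membrane and carriers with no settled substrate, 0 of 7 passed in the combined slope by edgeR. Slc25a46 was at Z = -0.53, Slc25a34 at -1.61, Slc25a35 at -0.41, Slc25a45 at -1.51, Slc25a47 at -1.55, Slc25a48 at -1.64 and Slc25a53 at 0.35. Slc25a35 fell in Q175 of 10 months, at 10.2, 10.8 and 11.96 CPM beside 11.02, 12.2 and 13.2 CPM in controls, with a log2 fold change of -0.16 ± 0.051 (adjusted p = 0.0255). The call was lost in 9 of 38 alternatives, among them leaving out any one of 5 Q175 libraries. It was also lost with no filter on low counts, WT alone as controls, limma on log2 FPKM and the oligodendrocyte covariate. Without the Q175 libraries the combined Z was 2.28 (edgeR adjusted p = 0.372). Slc25a35 shares 1882 bases with Rangrf on the other strand, and Slc25a25 shares 989 bases with Naif1. Whether the counting used strand is not known from the sources used here, and the reads of such pairs cannot be told apart. In all, 10 of the 43 members overlap a protein-coding gene.

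Genes of mitochondrial transport outside the Slc25a symbols were counted from lists. Of 18 other channels and transporters 2 rose and 1 fell in the combined slope, beside 17.0% of all genes called, so the share of the list was near that of all genes. Mcu, the pore of the calcium uniporter, was at Z = 5.38, the serine carrier Sfxn1 at 5.05 and Sfxn5 at -5.38. Without the libraries of low length index 5 rose and 1 fell, beside 30.3% of all genes called. Among 5 family members without an Slc25a symbol 1 fell, Ucp1 (Z = -2.76, adjusted p = 0.0372), and 0 passed without the low libraries. There 1 had an unadjusted p under 0.05, beside 39.7% of all genes. Of 10 genes for the import of carriers 0 passed by edgeR and by DESeq2, beside 17.0% and 18.3% of all genes. An unadjusted p under 0.05 was seen in 0 of the 10, beside 28.4% of all genes by edgeR. Without the low libraries 1 (Timm22) rose.

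The second comparison was age in the controls. Between 2 and 10 months 22 of 43 members passed (51.2%), beside 35.4% of all genes, with 4 higher and 18 lower at 10 months. Age and the handling of each age cannot be told apart. Of the control libraries of 2 months 4 were of low length index, all of them WT, and without the low libraries 19 members passed, beside 34.6% of all genes, of which 17 were shared with the first count. With the length index as a covariate 12 passed, beside 27.5%. In Q20, where no library of 2 or 10 months was low, the index was -0.0405 to 0.0013 at 2 months. At 10 months it was 0.0238 to 0.0462, so leaving out the low libraries did not even out the index between ages. Between 2 and 6 months 5 passed, beside 6.78%. The fit of age held no term for the library set, although WT libraries of 6 months carry another name format than the other control libraries.

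Slc25a29 fell by 0.42 ± 0.079 between 2 and 10 months on the log2 scale (adjusted p = 9.25e-05), and by 0.33 ± 0.0661 without the low libraries. Slc25a22 fell by 0.26 ± 0.0389 (adjusted p = 2.22e-06) and Slc25a18 by 0.30 ± 0.0578 (adjusted p = 0.000138). Both glutamate carriers also passed in the other 2 fits. Slc25a37 rose by 0.31 ± 0.0587 (adjusted p = 0.000111), Slc25a13 by 0.36 ± 0.115 (adjusted p = 0.0149) and Slc25a48, at under 1 CPM in every library, by 0.71 ± 0.167 (adjusted p = 0.00141).

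The abundant carriers changed by an amount that depended on the libraries. Slc25a4 fell by 0.23 ± 0.0854 with all control libraries and by 0.074 ± 0.0267 without the low ones. For Slc25a3 the values were -0.17 and -0.054, and for Slc25a5 -0.25 and -0.11. None of these 3 passed with the length index as a covariate.

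**Figure D4:**
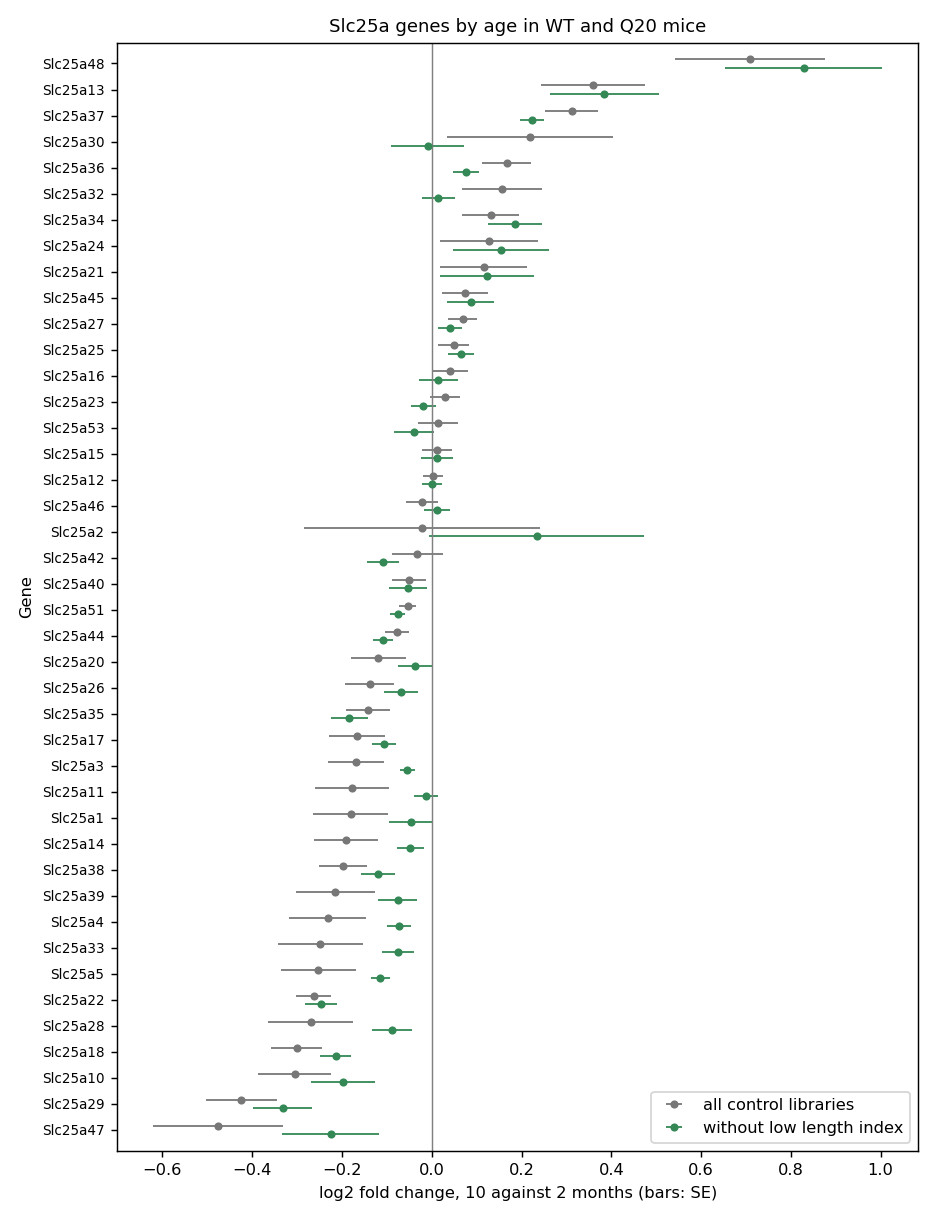
log2 fold change of 10 against 2 months with SE in WT and Q20 mice for 42 Slc25a genes, with all control libraries and without those of low length index. Slc25a4 moves from -0.23 to -0.074, and Slc25a22 is at -0.26 and -0.25.

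Many members moved with the length index. Over 166 libraries the log2 CPM of Slc25a4 had r = -0.95 with it, that of Slc25a28 r = -0.90 and that of Slc25a37 r = 0.91. Over the 142 libraries that were not low these values were -0.66, -0.39 and 0.57. Of 21 members with a gene length under 2000 bases 20 had a negative r over 166 libraries, and of 22 longer members 4 had. The index was made from gene length and the counts of these same libraries, so this split by length is no separate result. These correlations describe libraries that share depth and handling.

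**Figure D5:**
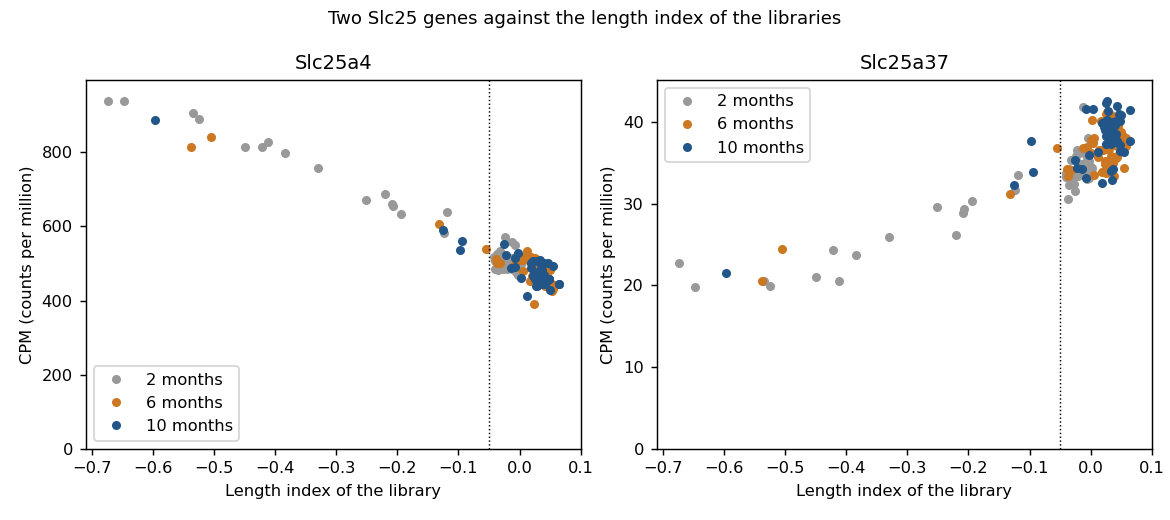
CPM of Slc25a4 and Slc25a37 against the length index in 166 libraries, coloured by age, with a dotted line at -0.05. Slc25a4 reaches 939.6 CPM and Slc25a37 is as low as 19.9 CPM in libraries of low index.

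Sex and the Q20 allele gave no calls among members (edgeR). Between males and females of the controls 0 of 43 passed, beside 0.297% of all genes, and 3 had an unadjusted p under 0.05, beside 5.49%. The X-linked members Slc25a5, Slc25a14 and Slc25a53 were at -0.043 ± 0.0682, -0.048 ± 0.059 and -0.057 ± 0.036 on the log2 scale, males against females. With the length index as a covariate, where 1.01% of all genes were called, Slc25a33 passed at -0.11 ± 0.0272 (adjusted p = 0.0266). Between Q20 and WT 0 of 43 passed, beside 0.0121% of all genes, and 7 had an unadjusted p under 0.05, beside 18.1%. Without the low libraries 0 members had such a p, beside 2.58% of all genes. For a difference of the CAG slope between 6 and 10 months 0 members passed, beside 0.0605% of all genes, and 1 had an unadjusted p under 0.05, beside 2.32% of all genes. Between males and females of 10 months 0 members passed for such a difference, beside 0.0242%, and 1 had an unadjusted p under 0.05, beside 1.17%.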

How the data were processed

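Cerebellar poly(A) RNA of 166 libraries was analysed. The authors deposited 1 table of expected counts per gene and 1 of FPKM. The submitters' processing notes name CASAVA 1.8.2; aligner, counter, strand setting and genome build: not given in the sources used here. All count columns were matched to a sample by the labels.

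Counts were rounded and tested with edgeR 4.0.16 in R 4.3.3 (TMM, two-sided quasi-likelihood F-test, adjusted over 16525 genes by Benjamini-Hochberg, threshold 0.05). Lines and slopes were fitted at each age apart, with sex as a covariate and the library set at 6 months. Age, sex and Q20 against WT were fitted over control libraries of several ages, with no term for the library set. Differences of slopes between ages were fitted over all libraries, with that term. Each SE was the size of the log2 fold change divided by the root of its F. CAG slopes are per 100 CAG, and Z values of 6 and 10 months were summed over the square root of their number. The deposited FPKM served for levels and, as log2(FPKM + 0.1), for limma 3.58.1. DESeq2 1.42.0 was an alternative. Positions are those of GENCODE vM21 (GRCm38) by Ensembl ID. Sequences are from RefSeq.

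The lists and members were chosen with earlier results of these data known. Members called in the combined slope or in Q175 at 6 or 10 months were named with values, the 8 with the smallest combined p in most detail, and all others by role, except 1 that is not reported here but is counted. Scripts were tested on simulated data. Alternatives covered normalization, filters, libraries, controls, covariates and pairing.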

Additional observations from a re-analysis of the deposited data

Results flagged for a closer look

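In groups of 6 and 10 months 112 group values of 8 members were checked for a single library far from the rest of its group, and 15 stood apart by Dixon's criterion, where chance gives about 1 in 20. Of these 12 were in libraries of low length index. In Q92 of 10 months male 2 was low for Slc25a27 at 55.4 CPM (nearest 68.3), Slc25a25 at 40.6 CPM (nearest 69.1), Slc25a22 at 133.1 CPM (nearest 190.9), Slc25a12 at 117.9 CPM (nearest 154.7) and Slc25a37 at 21.5 CPM (nearest 37.2). In Q92 of 6 months male 3 was low for Slc25a27 at 57.4 CPM (nearest 66.1), Slc25a25 at 48.8 CPM (nearest 69.3), Slc25a12 at 118.6 CPM (nearest 146.9) and Slc25a37 at 20.5 CPM (nearest 36.7). In Q20 of 6 months female 3 was low for Slc25a25 at 48.6 CPM (nearest 69.3) and Slc25a12 at 124.5 CPM (nearest 152.5), and in WT of 10 months female 3 was low for Slc25a37 at 33.9 CPM (nearest 38.3). The other 3 were high and not of low length index, with Slc25a37 at 40.99 CPM (nearest 38.1) in male 2 of WT of 6 months, and Slc25a13 at 6.18 CPM (nearest 4.17) in male 1 of Q140 of 10 months and 5.89 CPM (nearest 4.31) in female 2 of Q140 of 6 months.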

How the results depend on the processing

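Without the libraries of low length index the count of members called was 9 in Q175 of 6 months, 7 for the slope of 6 months, 9 for 6 against 2 months of age and 3 for the difference of the slopes of 2 and 10 months (Slc25a29, Slc25a37 and Slc25a25), beside 13.3%, 10.8%, 19.4% and 3.15% of all genes. With the length index as a covariate it was 9 in Q175 of 6 months, 7 for the slope of 6 months, 2 for the difference of the slopes of 2 and 10 months, 12 for 10 against 2 months of age and 1 for sex, beside 12.9%, 11.9%, 2.78%, 27.5% and 1.01%. With Q20 alone as controls 0 members passed for the slope of 6 months and 4 in the combined slope, beside 0.0363% and 8.99%. With WT left out, Q175 alone remained in its library set at 6 months, a covariate, so that slope rested on Q20 to Q140. Its count therefore cannot show an effect of the choice of controls. For the slope of 10 months 2 passed with no filter on low counts and 2 with WT alone as controls, beside 3.80% and 5.34%. DESeq2 called 1 member in Q92 of 10 months, beside 2.77%. By limma on log2 FPKM 4 passed in Q175 of 10 months and 6 in the combined slope, beside 9.36% and 13.9%, and Slc25a25 was called in neither. Of the settings chosen after seeing the data, leaving out Q175 gave 0 calls in the slopes of 6 and 10 months and combined, beside 0.0303%, 0.218% and 0.920%, and turned Slc25a22 to Z = 0.56. The oligodendrocyte covariate gave 0 for the slope of 10 months and 4 combined, beside 2.11% and 8.68%, and turned Slc25a13 to Z = 2.16. Each WT, Q20 and Q175 library of 10 months and each other library of low length index of that age was left out in turn, in 27 fits, and the count in Q175 of 10 months lay between 5 and 6, with 1762 to 3505 genes called in all. The cause of these shifts was not tested.

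Replicate numbers are shared between groups, and the labels tie them to no shared animal or litter. Over same-numbered pairs the mean correlation of deviations from the group mean was 0.123, 0.11 and 0.0966 at 2, 6 and 10 months. Over other pairs of groups it was 0.0186, -0.00944 and -0.0112. Of the same-numbered pairs 89 of 162, 87 of 168 and 78 of 151 were over 0.1, and the other pairs were not counted. Same-numbered libraries always share sex, so a pairing and sex cannot be told apart here. With a replicate block 6 members passed in Q175 of 10 months and 3 at 6 months, beside 11.3% and 4.28% of all genes. For the slopes of 6 and 10 months 2 and 3 passed, beside 4.91% and 6.86%, and in the combined slope 8, beside 15.7%. Of 43 members 30 changed sign in some of 13 alternatives of the combined slope, among them the called Slc25a22 and Slc25a13. Slc25a2 and Slc25a48 are limited by their low counts.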
